A study of Mus musculus with 2 samples.

Results

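Muscle mass depends on the balance of protein synthesis and breakdown, and the FoxO transcription factors stand at one side of it. When insulin or IGF-1 signalling is low, FoxO proteins stay in the nucleus and switch on genes of muscle wasting, among them the ubiquitin ligases Fbxo32 (atrogin-1) and Trim63 (MuRF1), which mark muscle proteins for the proteasome. The 9 genes described here are the factors Foxo1 and Foxo3, the ligase genes Fbxo32, Trim63, Fbxo30, Fbxo21 and Fbxo40, the glucocorticoid-induced factor gene Klf15, and Eif4ebp1, which encodes a repressor of cap-dependent translation. Their probe sets were found by gene symbol, and the genes were picked with earlier results of these arrays known. Of the 34958 probe sets that the platform annotation names for 1 gene, 21 carry the symbol of 1 of 8 of these genes. No probe set carries the symbol of Fbxo40, which was therefore not analysed here. A further probe set, named for both Foxo3 and Gm38485, was not used; it read 9.1 in RXRγ mice and 3.4 in control mice.

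Transcripts were measured in skeletal muscle of 2 groups of female C57BL6 mice, both 4 months of age. The RXRγ mice overexpress the nuclear receptor RXRγ in skeletal muscle from the human α-actin promoter and belong to a single transgenic line, and the control mice carry no transgene. Each genotype is represented by 1 RNA pool on 1 Affymetrix MG430 array. Its animals number 5 by the methods and 3 by the sample labels. Without replicate arrays, none of the values below has an error and the genotypes could not be tested against each other. Precision is set by having a single array on each side.

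A signal here is the deposited intensity of a probe set in array units, and a log2 ratio is that of RXRγ over control mice. A probe set was called higher or lower when its signal was above 250 on the brighter array and its log2 ratio was at least 0.4 in size. These limits follow the methods of the study. Rxrg itself reached 9172 in RXRγ mice and 334.5 in control mice. All 8 skeletal muscle fibre markers examined were above 250, with Myh2, the myosin of fast oxidative fibres, the lower one among them (5703 in RXRγ mice against 9978 in control mice). Of the markers of 8 other cell types, read by their brightest probe set, none that was above 250 passed 0.4 in either direction. The summed signal of the 5 endothelial markers, all under 250, was 640.6 in RXRγ mice and 799.6 in control mice, and that of the 3 satellite cell markers, also under 250, was 183.4 in RXRγ mice and 95.2 in control mice. Whether these differences have a part in the results was not tested, and in muscle as a whole fewer cells of a type cannot be told apart from less RNA per cell.

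Of the 21 probe sets, 6 had a signal above 250, and they belong to 3 genes. Fbxo32 and Trim63 were lower in RXRγ mice at 4 probe sets and Eif4ebp1 was higher at 2. Among all 5538 probe sets above 250 with 1 gene symbol, 20.9% were lower and 17.2% higher by the same rule. At a log2 ratio of 1 the shares were 4.28% and 5.11%, and 3 of the 4 lower probe sets and both higher ones passed that limit too. Of all 3780 genes measured, 20.1% were lower and 16.8% higher. The other 15 probe sets did not reach 250, and their values are given below without a call.

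**Figure D1:**
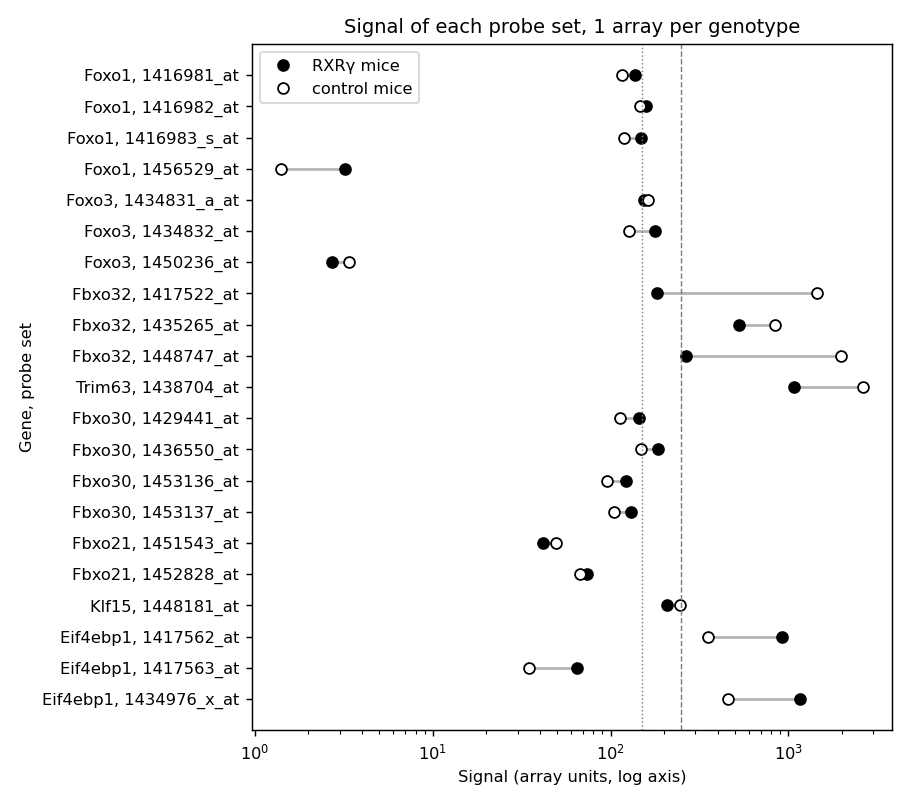
Readings of the 21 probe sets in RXRγ mice (filled circles) and control mice (open circles), in array units on a log axis, 1 array per genotype, with grey lines joining the 2 values of a probe set. The dashed line marks 250 and the dotted line 150; Fbxo32 and Trim63 lie to the left in RXRγ mice, Eif4ebp1 to the right, and the Foxo1, Foxo3, Fbxo30, Fbxo21 and Klf15 probe sets stay under 250 on both arrays.

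Fbxo32 encodes the substrate-binding F-box subunit of an SCF ubiquitin ligase that is made almost only in striated muscle. Probe set 1417522_at had a signal of 182.3 in RXRγ mice against 1441.5 in control mice, a 7.91-fold lower value (log2 ratio -2.98). This probe set passed the signal limit on the array of control mice alone, so that limit fixed its direction. Probe set 1448747_at had 264.4 in RXRγ mice against 1962.5 in control mice, 7.42-fold lower (log2 ratio -2.89). These ratios ranked 9 and 10 from the lowest among the 5538 probe sets. The third probe set, 1435265_at, had 527.2 in RXRγ mice against 839.4 in control mice and was only 1.59-fold lower (log2 ratio -0.67), which ranked 551 from the lowest. All 3 probe sets thus had the lower signal in RXRγ mice, but they did not give one size of the difference. The mean of the log2 ratios was -2.18.

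This disagreement within Fbxo32 was unusual on these arrays. Among the 1213 genes with more than 1 probe set above 250, the highest and lowest log2 ratios of a gene were a median of 0.20 apart, and 95% of genes lay within 0.71. For Fbxo32 the span was 2.31, and no other gene had a larger one; Car3 (2.19) and the imprinted RNA Meg3 (1.72) came next. The annotation ties the 2 probe sets with the large difference to the same cDNA accession and 1435265_at to a different, expressed sequence tag accession. Which part of the transcript each probe set reads was not analysed here.

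**Figure D2:**
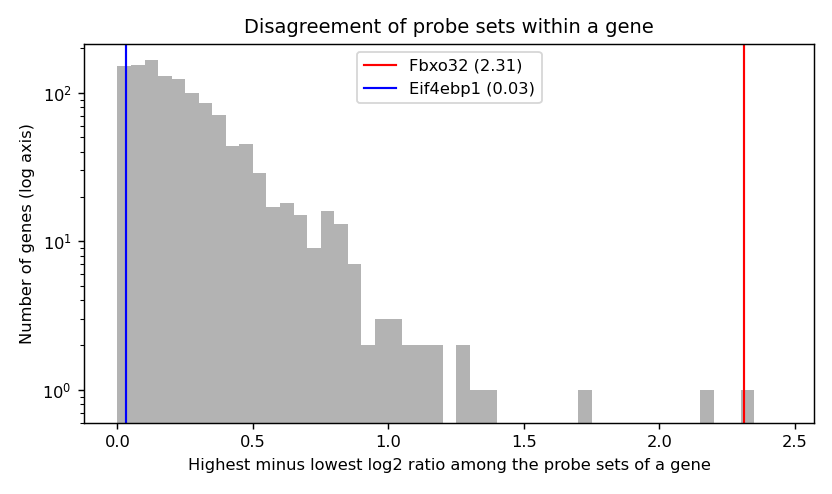
Number of genes (log axis) by the span between the highest and the lowest log2 ratio of their probe sets, for the 1213 genes with more than 1 probe set above 250. The red line marks Fbxo32 (2.31), at the far right of all genes, and the blue line Eif4ebp1 (0.03).

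Trim63 encodes MuRF1, a RING finger ligase of the sarcomere that targets thick filament proteins. Its probe set had a signal of 1070 in RXRγ mice against 2636.2 in control mice, 2.46-fold lower (log2 ratio -1.30, rank 131 from the lowest of 5538). Among the 705 probe sets whose brighter signal exceeded 2000, the log2 ratio at the 5th percentile was -0.87, and Trim63 lay below it. The gene has 1 probe set, and its difference therefore has no second reading on these arrays.

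The Trim63 promoter is shown because it is the one member promoter, among those of 7 genes found by symbol in the RefSeq table, that held a FoxO motif. No window was found by symbol for Fbxo32 or Eif4ebp1, so their promoters were not searched. Fbxo40, which has no probe set, is among the 7 genes and holds more than 1 of the 8 windows. The window runs from 250 bases before to 50 after the start site (GRCm38.p6, chr4:134314870-134315169, plus strand). The capitals mark a glucocorticoid receptor motif (GNACA and TGTNC with 3 bases between them) at -208 to -196, and then a FoxO motif, GTAAACA, which is read on the other strand at -194 to -188:
Trim63: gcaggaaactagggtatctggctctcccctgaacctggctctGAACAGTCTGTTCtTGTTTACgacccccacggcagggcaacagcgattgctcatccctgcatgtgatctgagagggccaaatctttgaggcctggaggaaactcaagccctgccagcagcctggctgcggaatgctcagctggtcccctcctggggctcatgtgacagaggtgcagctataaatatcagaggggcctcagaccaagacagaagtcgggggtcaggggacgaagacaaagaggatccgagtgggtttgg
Searched on both strands, GTAAACA was in 3.65% of 32851 promoter windows of this length and the glucocorticoid receptor motif in 0.475%. The Trim63 window was the only one of the 8 member windows to hold either, and the motifs are 1 base apart without overlap. The E-box CANNTG, a motif of myogenic and other factors, stood 3 times in the Trim63 window, in 5 of the 8 windows and in 72.3% of all. The nuclear receptor element AGGTCA was in 1 of the 8 windows, that of a second Fbxo40 start site, and in 16.3% of all, and its direct repeat with 1 base between the copies was in none of the 8 and in 0.0396% of all. The insulin response motif CAAAACA was in none of the 8 windows and in 6.28% of all, and CCACCC, a motif of KLF factors, in 1 of the 8 and in 31.5%. A match is a description of these letters and not a measured binding site.

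Eif4ebp1 encodes 4E-BP1, which binds the cap-binding protein eIF4E and holds back translation until mTORC1 phosphorylates it; in flies its homologue is a FoxO target. It was the one member gene with a higher signal above 250 in RXRγ mice. Probe set 1417562_at had 925.1 in RXRγ mice against 354.2 in control mice, 2.61-fold higher (log2 ratio 1.39, rank 133 from the highest of 5538). Probe set 1434976_x_at had 1163.8 in RXRγ mice against 455.1 in control mice, 2.56-fold higher (log2 ratio 1.35, rank 141 from the highest). These 2 log2 ratios were 0.03 apart, closer than in 1116 of the 1213 genes with several probe sets. The third probe set, 1417563_at, was far below 250 (64.7 in RXRγ mice, 34.8 in control mice, log2 ratio 0.89).

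The FoxO factors themselves were dim on these arrays. For Foxo1, a factor that rises in fasted muscle, 3 probe sets had signals of 137.0, 147.6 and 158.8 in RXRγ mice against 116.4, 119.1 and 145.7 in control mice, and the log2 ratios were 0.24, 0.31 and 0.12. The fourth, at 3.2 in RXRγ mice and 1.4 in control mice, was too low for a ratio to be read. Foxo3 had 155.0 in RXRγ mice and 161.9 in control mice at probe set 1434831_a_at (log2 ratio -0.06), and 176.9 in RXRγ mice and 127.6 in control mice at 1434832_at (log2 ratio 0.47). Its remaining probe set had 2.7 in RXRγ mice and 3.4 in control mice. All 3 readable Foxo1 probe sets thus had a slightly larger signal in RXRγ mice, and those of Foxo3 went both ways. The annotation ties these 3 Foxo1 probe sets to the same sequence. Of them, 1416981_at and 1416983_s_at were under 150 on both arrays, and with signals under 150 set to 150 their log2 ratios were 0. Between the 5th and 95th percentiles, the log2 ratios of the 2598 probe sets with a brighter signal above 150 and up to 250 ran from -0.78 to 1.01, and those of the 7004 probe sets above 50 and up to 150 from -0.89 to 1.07. Every readable Foxo1 and Foxo3 value lay inside these ranges.

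The other ligase genes were also under 250. Fbxo30 encodes MUSA1, an F-box ligase that is induced in denervated muscle. Its 4 probe sets had signals of 122.0, 130.4, 145.3 and 185.5 in RXRγ mice against 95.1, 104.9, 112.3 and 147.3 in control mice, in the same order, and the larger signal was that of RXRγ mice at each. The log2 ratios lay close together, from 0.31 to 0.37, in the direction opposite to Fbxo32 and Trim63 and inside the range of other probe sets of that brightness. The annotation ties 1429441_at, 1453136_at and 1453137_at of Fbxo30 to the same sequence, and each was under 150 on both arrays. Fbxo21 encodes SMART, another F-box ligase reported in muscle wasting. It had 41.6 and 73.9 in RXRγ mice and 49.2 and 67.0 in control mice at its 2 probe sets, log2 ratios of -0.24 and 0.14, with no common direction. Klf15, a Krüppel-like factor gene that glucocorticoids induce and that promotes amino acid breakdown, had 207.0 in RXRγ mice and 244.8 in control mice (log2 ratio -0.24), just under the limit of 250.

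**Figure D3:**
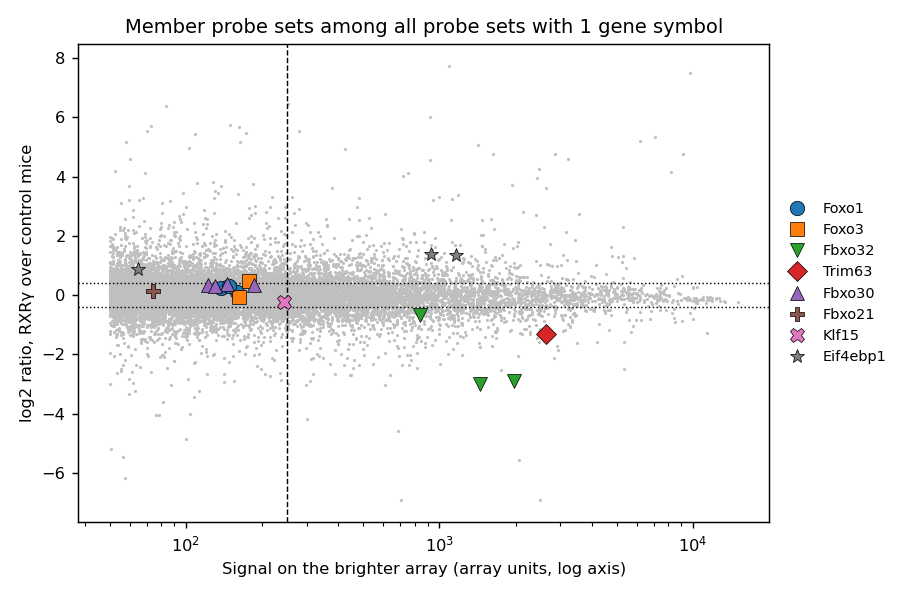
log2 ratio (RXRγ over control mice) against the signal on the brighter array (array units, log axis) for each probe set with 1 gene symbol and a brighter signal above 50 (grey), with those of the 8 genes as coloured symbols. The dashed line marks 250 and the dotted lines 0.4 in either direction; 2 Fbxo32 symbols (-2.98 and -2.89) and Trim63 (-1.30) lie below most of the cloud, 2 Eif4ebp1 symbols (1.39 and 1.35) above most of it, and the symbols left of the dashed line lie between -0.24 and 0.89.

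Lists of related genes were described by the mean log2 ratio of each gene over its probe sets above 250, with lower bounds against 150 where 1 of its mean signals was under it. The lists share genes, and the median over all 3780 genes was -0.04. In the list of FoxO signalling, which runs from the insulin receptor to the factors, 10 genes were measured, 3 were higher, 2 were lower and the median was -0.09. The shares over all genes were 16.8% higher and 20.1% lower, and no conclusion was drawn from so few genes. Foxo4, the only family member above 250, had 285.6 in RXRγ mice and 280.2 in control mice. The higher genes were the kinase genes Pdpk1 (854.4 in RXRγ mice against 527.5 in control mice) and Akt2 (628.8 against 409.6), whose products restrain FoxO, and the coactivator gene Ppargc1a (302.0 against 223.8). The log2 ratio of Ppargc1a was 0.44, but 0.33 without the signal filter, where it no longer passed. Its only probe set above 250 on both arrays had 336 in RXRγ mice against 262 in control mice (log2 ratio 0.36), short of 0.4. Its other probe sets above 250 passed that limit on the array of RXRγ mice alone, so the filter fixed their direction. With 250 required on both arrays, 2 genes of the list were higher and 1 was lower. Smad3, which relays myostatin signals, was lower at 214.1 in RXRγ mice against 727.1 in control mice (log2 ratio -1.76). It passed 250 on the array of control mice alone, so the filter fixed its direction. Irs1 had 2451 in RXRγ mice and 3274 in control mice, and its log2 ratio of -0.42 no longer passed 0.4 under any of 3 other scalings (-0.39 to -0.35).

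Of the known FoxO target genes besides the 3 members, 23 were measured, 5 higher and 4 lower, with a median of 0.01. These counts are near the shares of all genes, 16.8% and 20.1%, and say nothing particular about the targets. Pdk4, which blocks pyruvate entry into the mitochondria, was lower at 1811 in RXRγ mice against 5362 in control mice (log2 ratio -1.57). Igfbp5, an IGF-binding protein gene, had a log2 ratio of -0.67, and Fbxo31, a further F-box gene, one of -1.06. Ctsl, a lysosomal protease gene, was at -0.41 but at -0.38 to -0.34 under the other scalings. The higher genes were those of the metallothioneins Mt1 (log2 ratio 1.25) and Mt2 (0.42), the peroxide-degrading enzyme catalase (Cat, 0.99), the autophagy protein Gabarapl1 (0.83) and the growth arrest protein Gadd45a (0.45). Autophagy genes in the list that passed in neither direction were Map1lc3b (-0.25), Bnip3 (-0.13) and Ulk2 (-0.20).

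Among ubiquitin ligase genes of muscle other than the members, 12 were measured, 4 lower and 3 higher, with a median of -0.03. The shares over all genes were 20.1% and 16.8%. Nedd4l and Itch passed 250 on the array of RXRγ mice alone and Neurl2 on that of control mice alone, so the filter fixed their direction. With 250 required on both arrays only 1 gene was higher, and no conclusion was drawn from these counts. Trim54, which encodes MuRF3, a relative of MuRF1 at the sarcomere, had 1138 in RXRγ mice against 2497 in control mice (log2 ratio -1.13). Fbxo31 had 374.6 in RXRγ mice against 780.0 in control mice, Ubr2 269.9 against 390.4 and Neurl2 223.0 against 335.0. Without the signal filter the mean log2 ratio of Ubr2 was 0.24 against -0.53 with it. The turn came from a probe set at 10.1 in RXRγ mice and 1.8 in control mice, too low for a ratio to be read. Its other dim probe sets had log2 ratios of -0.67 and -0.34. On the other side, the HECT ligase gene Nedd4l had 359.9 in RXRγ mice against 123.7 in control mice and was at least 2.40-fold higher, Itch had 293.5 against 157.6 (log2 ratio 0.90, and 0.12 without the filter), and the chaperone-linked ligase gene Stub1 had a log2 ratio of 0.41. Nedd4, Wwp1, Huwe1 and Ubr4 had log2 ratios of -0.05, 0.04, 0.14 and -0.01. Among all 11 measured genes of the F-box family by symbol, Fbxo32 and Fbxo31 were lower, Fbxo22 was higher (705.6 in RXRγ mice against 409.0 in control mice, log2 ratio 0.72, and 0.29 without the filter) and 8 were neither, with a median of 0.09. The 3 measured genes of the SCF core and its neddylation, Cul1 (-0.10), Nedd8 (0.02) and Cops5 (-0.33), passed in neither direction.

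Fbxo32, Trim63 and Klf15 are also induced by glucocorticoids. In the list of glucocorticoid-responsive and Klf15 target genes 15 were measured, 7 lower and 1 higher, against 20.1% lower and 16.8% higher of all genes. The list was chosen with earlier results of these arrays known, so the count is a description and not a test. The median was -0.39, the lowest of the 8 list medians drawn. With 250 required on both arrays, or with intensity-dependent centring, 6 were lower. With 500 required on the brighter array 4 were lower, at a threshold of 1 only 2 were, and with a pseudocount of 32 none was higher. Gpt2, a mitochondrial alanine transaminase gene, had 322.7 in RXRγ mice against 955.6 in control mice, and a mean log2 ratio of -1.59 over 4 probe sets with signals under 150 set to 150. Fkbp5, a chaperone gene often used as a readout of the glucocorticoid receptor, had 113.3 in RXRγ mice against 315.5 in control mice and was at least 2.10-fold lower. Fkbp5 passed 250 on the array of control mice alone, so the filter fixed its direction. Cebpb had a log2 ratio of -0.81, Cebpd one of -0.66 (-0.14 without the signal filter), Bckdha of branched-chain amino acid breakdown -0.69 and Zbtb16 -0.62. Tsc22d3, which encodes GILZ, was at -0.44, but at -0.41 to -0.39 under the other scalings and at -0.11 without the filter. The receptor gene Nr3c1 (512.1 in RXRγ mice and 567.2 in control mice), Dusp1 (-0.02) and Sgk1 (-0.22) passed in neither direction, and Mt2 was the higher gene.

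Of the mTORC1 and cap-binding genes other than Eif4ebp1, 12 were measured, 3 were higher and 1 was lower, with a median of 0.26. The shares over all genes were 16.8% higher and 20.1% lower, and no conclusion was drawn from so few genes. The gene of the 4E-BP1 binding partner, Eif4e, had 1388 in RXRγ mice against 979.7 in control mice (log2 ratio 0.55). Mtor had 413.9 in RXRγ mice against 229.7 in control mice, and Deptor, an inhibitor of the mTOR kinase, 884.3 against 518.8. Mtor passed 250 on the array of RXRγ mice alone, so the filter fixed its direction. The lower gene was Ddit4l, a stress-induced inhibitor of mTORC1, at 621.9 in RXRγ mice against 1841 in control mice (log2 ratio -1.57). The related 4E-BP gene Eif4ebp2 stayed under 250, at 166.0 in RXRγ mice and 216.4 in control mice.

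Eif4ebp1 is known as a target of the stress factor ATF4 too. Besides Eif4ebp1, 11 genes of that list were measured, 4 higher and 5 lower, with a median of -0.23. Over all genes, 16.8% were higher and 20.1% lower. The list was chosen with earlier results of these arrays known, and no conclusion was drawn from so few genes. Atf4 itself had 627.5 in RXRγ mice against 870.8 in control mice (log2 ratio -0.48). Atf5 had 820.3 in RXRγ mice against 285.6 in control mice and Atf3 had 360.6 against 71.8, at least 2.40-fold higher. Chac1, a glutathione-degrading enzyme gene, had 74.0 in RXRγ mice against 610.1 in control mice and was at least 4.07-fold lower. Atf3 passed 250 on the array of RXRγ mice alone and Chac1 on that of control mice alone, so the filter fixed their direction. With 250 required on both arrays, 4 genes of the list, Eif4ebp1 included, were higher and 4 lower. Vldlr, a lipoprotein receptor gene, had a log2 ratio of -1.21. The remaining higher genes were Slc3a2 (0.55) and Gadd45a (0.45), and the remaining lower ones Cebpb (-0.81) and Aars (-0.44). Eif4ebp1 thus had the direction of some genes of the list and not that of others.

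**Figure D4:**
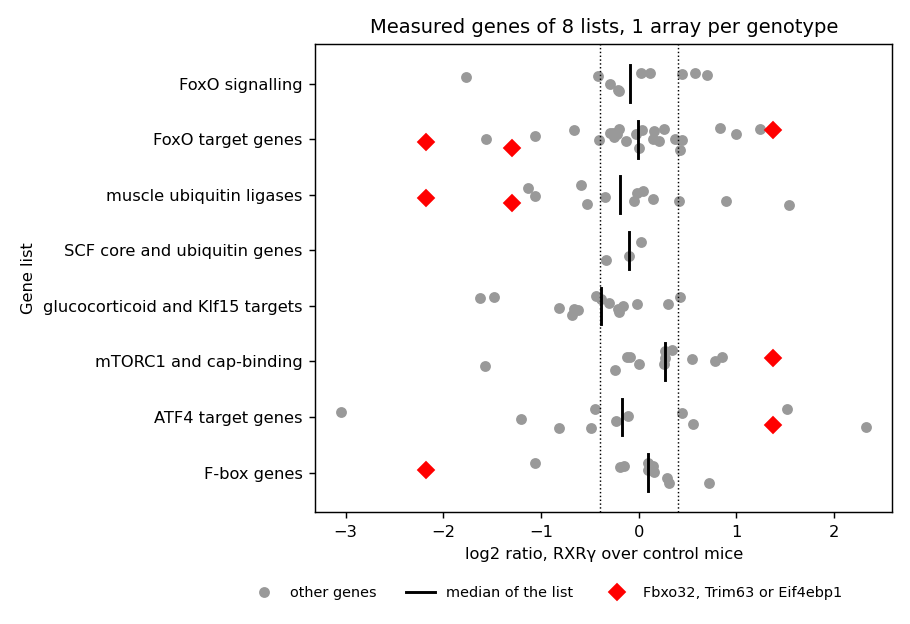
Mean log2 ratio (RXRγ over control mice) of the measured genes of 8 lists, with a point for each gene and vertical scatter that has no meaning; red diamonds are Fbxo32, Trim63 or Eif4ebp1 and black bars the list medians. Dotted lines mark 0.4 in either direction, and none of the 8 medians drawn passes them. The lowest is that of glucocorticoid and Klf15 targets (-0.39) and the highest that of mTORC1 and cap-binding genes (0.27). The list of denervation response genes, of which 4 were measured, is not drawn.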

How the data were processed

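Skeletal muscle RNA of RXRγ and control mice, pooled within each genotype, was measured on 1 Affymetrix MG430 array each. The deposited intensity values are the authors' probe set signals; their Affymetrix software weighs perfect-match against mismatch oligonucleotides. The 45101 values of each array are linear, none is negative, and after trimming 2% from either end their mean was 100. The sources used here do not give their scaling method. Present and absent calls were not used here.

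Probe sets were named by the platform annotation where it gives 1 gene symbol. log2 ratios were computed without a pseudocount, and a fold against a signal under 150 was given as a bound; ratios of dim member probe sets are descriptions with no call. No genome build is named, so only the promoter, from RefSeq, has coordinates. The members and lists were chosen with earlier results of these data known. All member probe sets were described, and from each list the 6 largest changes beyond 0.4; further list genes were named after their values were seen. Steps were tested on simulated data. Python 3.11.15, pandas 2.3.3, numpy 2.4.6, statsmodels 0.14.6 (lowess) and matplotlib 3.10.9 were used. Alternatives changed the scaling, pseudocount, floor, signal filter, threshold and choice of probe sets.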

Additional observations from a re-analysis of the deposited data

How the results depend on the processing

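No paired analysis was possible because each genotype has 1 array, and no replicate could be left out. A log2 ratio was taken as moved at a factor of 1.5. Under all 12 alternatives 2 member genes were lower, and under all but the one without a signal filter 1 was higher. Without a filter 2 genes and 5 probe sets were higher, because Foxo1 at 3.2 against 1.4 and the dim Foxo3 and Eif4ebp1 probe sets then count. Without probe sets ending in _x_at or _s_at 1 probe set was higher. The remaining 43 member counts stayed within a factor of 1.5, although requiring 250 on both arrays left 3 probe sets lower. The log2 ratio ran from -1.30 to -1.24 for Trim63 and from 1.21 to 1.41 for Eif4ebp1. For Fbxo32 it ran from -2.89 with the brightest probe set to -1.78 with probe set 1435265_at kept and 250 required on both arrays. Of 216 list counts, 178 stayed within that factor, 16 were larger and 22 smaller. Of 45 list genes beyond 0.4, 42 passed it under all 3 scalings, all but Irs1, Ctsl and Tsc22d3. Over all genes, 636 were higher and 760 lower, against 371 and 501 with 250 on both arrays, 340 and 438 with 500 on the brighter array, 982 and 1028 with 150, 5208 and 4114 without a filter, and 191 and 155 at a threshold of 1. Low signals limit what can be read for Foxo1, Foxo3, Fbxo30, Fbxo21 and Klf15.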

Other observations

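Fbxo32 and Trim63 are also known from denervated muscle, where myogenin takes part in their induction. Of 16 genes of the denervation response, 4 were above 250. Dach2, Chrnb1 and Myh8 passed that limit on the array of RXRγ mice alone, so the filter fixed their direction, and no count is drawn from them. Dach2, a gene that falls in denervated muscle, had a signal of 267.8 in RXRγ mice against 39.3 in control mice and was at least 1.79-fold higher. The acetylcholine receptor gene Chrnb1 had 273.2 in RXRγ mice against 139.3 in control mice, at least 1.82-fold higher. Gadd45a had a log2 ratio of 0.45, and the perinatal myosin gene Myh8 had 9705 in RXRγ mice against 53.8 in control mice. Myog itself, under 250, had 185.9 in RXRγ mice and 75.4 in control mice.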
